A study of Homo sapiens with 24 samples.

Results

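The MARCKS, ABLIM and SHROOM families link the actin cytoskeleton to the membrane and to cell junctions, and 8 of their genes were followed in RNA-Seq libraries of SK-MES1 cells: MARCKS, MARCKSL1, ABLIM1, ABLIM3, SHROOM1, SHROOM2, SHROOM3 and SHROOM4. The genes were taken by name, without a threshold on their values, but with earlier results of these data known. Counts of members and of related genes below are therefore not those of an independently chosen set. All 8 were among the 17415 genes with enough reads to be tested, of 34834 genes matched in the deposited tables. For ABLIM1, transcripts that reached 10% of the gene's TPM (transcript abundance scaled for length and library size, so that levels can be compared between genes) in at least 1 group were described as well.

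SK-MES1 (SK-MES-1 in the sample labels) is an established human line of squamous cell lung carcinoma. Cells of this line were deprived of growth factors for 3 h and then either left untreated (Control 0h, 8h, 24h and 48h) or stimulated with 2 ng/ml TGFβ1 (TGFb 0h, 8h, 24h and 48h), and the labels give no other agent and no genetic change in either arm. According to the study's methods, medium without growth factors was also used during the stimulation with TGFβ1. For the untreated arm the medium after 0 h is not stated separately. Each of the 8 groups held 3 biological replicates, which gave 24 libraries with 46613589 to 77964234 estimated reads each (median 54120879). The model is a single cell line, and what set the biological replicates apart is not stated, so p-values measure the spread between replicates of 1 line. MARCKS, ABLIM1 and SHROOM4 are among the 15 candidate genes that the study itself picked from these same libraries, so their rise is not independent evidence.

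MARCKS is a myristoylated protein that sits on the inner face of the plasma membrane, where a short lysine-rich stretch, the effector domain, binds the lipid PIP2, calmodulin and actin filaments. Protein kinase C phosphorylates this stretch and releases the protein from the membrane, and MARCKSL1 is its smaller relative with the same domain. ABLIM proteins carry LIM domains and a villin headpiece that binds actin filaments, and are known to act with the muscle protein ABRA on transcription through SRF. SHROOM proteins bind actin and recruit ROCK kinases to epithelial junctions, where contraction of the actomyosin ring narrows the cell apex.

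The lysine-rich stretch is shown first because it is the feature that MARCKS and MARCKSL1 share, while their mRNA levels behaved differently below. It lies in exon 2 of both genes, at chr6:113860034-113860108 on the plus strand for MARCKS (residues 152 to 176 of 332) and at chr1:32334855-32334926 on the minus strand for MARCKSL1 (residues 87 to 110 of 195), in GRCh38 with GENCODE release 44 transcripts. Capitals mark the 16 bases that differ in the aligned codons, and the 1 codon that only MARCKS has.
MARCKS: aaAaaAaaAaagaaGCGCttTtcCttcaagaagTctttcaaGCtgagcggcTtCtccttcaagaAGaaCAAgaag
MARCKSL1: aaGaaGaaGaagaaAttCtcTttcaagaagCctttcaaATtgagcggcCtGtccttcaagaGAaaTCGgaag
Of 24 aligned residues in the stretch, 20 were identical, against 103 of 195 aligned residues (52.8%) over the whole proteins. The stretch holds 12 of the 28 lysines of MARCKS and 10 of the 18 lysines of MARCKSL1. It was taken as the 25 residues of MARCKS with the most lysines, and in MARCKSL1 as the residues aligned with them. The high share of lysines in MARCKS therefore follows from that choice.

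Windows of 250 bases at 4 transcription starts are shown next, because the levels of MARCKS and of the 2 main ABLIM1 transcripts differed between the arms and MARCKSL1 is the paralog that differed little. Capitals mark CAGAC, or GTCTG where the motif lies on the other strand, which is the core of the element bound by SMAD3 and SMAD4, the factors that carry TGFβ signals to the nucleus. The windows of MARCKS (chr6:113857095-113857344, plus strand), MARCKSL1 (chr1:32336234-32336483, minus strand) and the long ABLIM1 transcript ABLIM1-204 (chr10:114684444-114684693, minus strand) are from RefSeq on GRCh38.p14, and that of the short transcript ABLIM1-203 (chr10:114526932-114527181, minus strand) was read from GRCh38. The RefSeq start behind the ABLIM1-204 window differs from the start of that transcript in GENCODE, so the window runs 14 bases into the transcript.
MARCKS: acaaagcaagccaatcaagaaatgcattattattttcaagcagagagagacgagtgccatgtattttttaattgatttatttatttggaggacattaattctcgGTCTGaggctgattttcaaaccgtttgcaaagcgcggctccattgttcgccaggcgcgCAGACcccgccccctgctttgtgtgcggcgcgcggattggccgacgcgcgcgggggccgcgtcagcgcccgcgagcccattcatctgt
MARCKSL1: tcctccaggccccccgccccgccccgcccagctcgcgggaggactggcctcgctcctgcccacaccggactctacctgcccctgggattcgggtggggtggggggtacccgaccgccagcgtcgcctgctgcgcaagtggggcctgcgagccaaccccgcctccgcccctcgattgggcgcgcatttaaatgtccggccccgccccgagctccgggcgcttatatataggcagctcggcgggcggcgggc
ABLIM1-204: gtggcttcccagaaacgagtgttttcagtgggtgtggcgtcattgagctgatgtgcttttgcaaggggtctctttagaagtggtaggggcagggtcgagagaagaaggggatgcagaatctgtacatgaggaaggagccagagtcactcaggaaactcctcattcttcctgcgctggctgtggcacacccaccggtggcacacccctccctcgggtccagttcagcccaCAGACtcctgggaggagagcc
ABLIM1-203: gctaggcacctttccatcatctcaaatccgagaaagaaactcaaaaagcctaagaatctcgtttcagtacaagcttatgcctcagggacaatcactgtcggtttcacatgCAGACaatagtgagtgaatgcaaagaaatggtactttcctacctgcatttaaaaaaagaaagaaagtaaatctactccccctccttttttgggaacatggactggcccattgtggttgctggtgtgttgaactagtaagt
The motif stood 2 times before MARCKS, 1 time in each of the ABLIM1 windows shown and 0 times before MARCKSL1. Among the windows not shown, it stood 1 time in 1 of 2 windows of SHROOM1, 1 time in 1 of 2 windows of ABLIM3, 1 time in 4 of the 5 other windows of ABLIM1, 0 times before SHROOM3 and 1 time in the window of SHROOM4, which lies at the internal start of SHROOM4-203. Of 35116 RefSeq windows of the same length, 38.0% held it at least once on either strand and 8.6% held it at least 2 times. RefSeq windows were found for 7 of the 8 genes, the one without being SHROOM2. A match is a run of letters, not a site shown to be bound.

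The study's question for these genes is how TGFβ changes expression over time. MARCKS, ABLIM1, ABLIM3 and SHROOM4 stood above the untreated cells from 8 h on, MARCKSL1 did so at 48 h, SHROOM2 and SHROOM3 were lower with TGFβ1, and SHROOM1 did not pass in the fit over all libraries. The plot of levels by library shows every value.

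**Figure D1:**
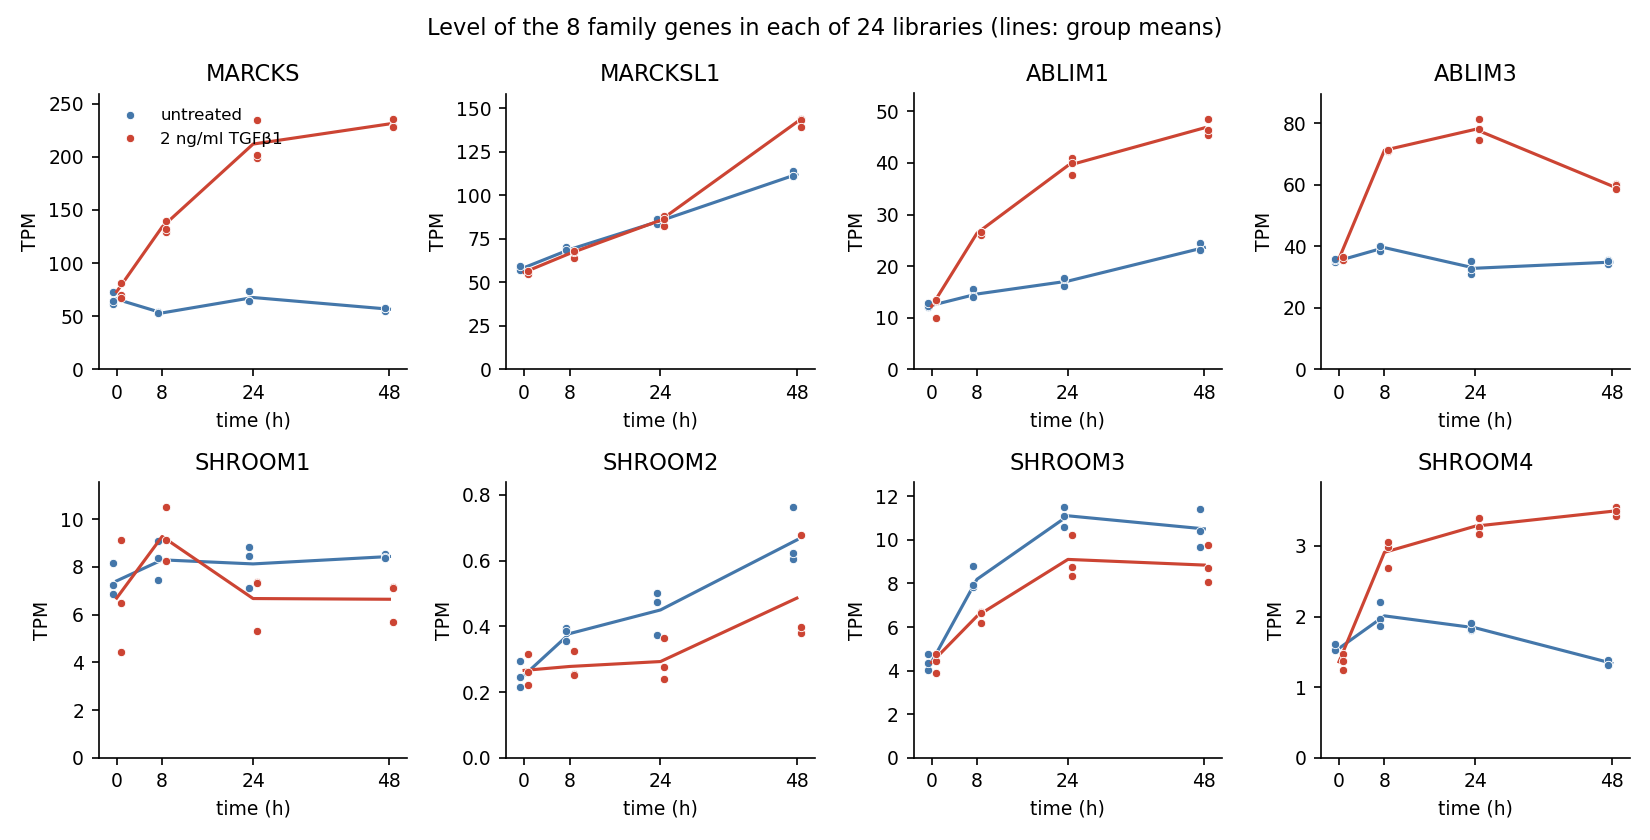
Level in TPM (vertical axes, from 0) of the 8 genes against time in hours, with 1 point per library and lines through the means of 3 libraries, untreated in blue and TGFβ1 in red. MARCKS at 48 h reached 228 to 236 TPM with TGFβ1 against 55.1 to 57.5 TPM without, whereas MARCKSL1 with TGFβ1 lay slightly below the untreated libraries at 0 and 8 h, among them at 24 h and above them at 48 h.

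At 0 h, no member differed between the arms in limma voom at the threshold used throughout, an adjusted p below 0.01, and neither did any other gene (0% of 17415). At an unadjusted p below 0.05, 801 genes differed at 0 h in limma voom, 2 of them members (MARCKS, log2 difference 0.17, and SHROOM4, log2 difference -0.15). No gene was called at 0 h by edgeR and 8 genes were by DESeq2, none of them a member.

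With TGFβ1, 5 of 8 members passed the threshold by 8 h, beside 16.4% of all genes tested. They were 4 higher (9.14% of all genes) and 1 lower (7.29%). At 24 h 6 of 8 passed, beside 29.4%, as 4 higher (15.5%) and 2 lower (13.9%). At 48 h 7 of 8 passed, beside 32.7%, as 5 higher (16.2%) and 2 lower (16.5%). Over the 3 times together 7 of 8 passed the F-test in limma voom, beside 42.6% of all genes. Of these 7, 5 were higher on average with TGFβ1 (21% of all genes) and 2 were lower (21.6%). The median log2 difference of the 8 members was 0.31, 0.47 and 0.59 at 8, 24 and 48 h, beside -0.016, -0.015 and -0.013 over all genes tested. In bulk libraries a lower level in every cell and a smaller number of cells with the mRNA cannot be told apart.

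The names of the deposited tables carry 1 code for the untreated libraries of 0 and 8 h, 1 for those of 24 and 48 h, and likewise for the TGFβ1 arm. What the 4 codes stand for is not stated. At each time the code and the arm go together, so their parts in a difference cannot be told apart. Changes of the difference from 0 to 8 h and from 24 to 48 h compare libraries within codes and are given for each member below.

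MARCKS had the largest log2 difference of the 8 members at 8, 24 and 48 h. The gene lies at chr6:113857345-113863475 on the plus strand and has 1 transcript of 2 exons in the annotation. Untreated libraries held 61.5, 72.4 and 64.0 TPM at 0 h, 52.8, 53.7 and 52.9 at 8 h, 64.7, 73.9 and 64.1 at 24 h, and 55.1, 57.3 and 57.5 at 48 h. With TGFβ1 the libraries held 70, 81.7 and 67.6 TPM at 0 h, 129, 132 and 140 at 8 h, 199, 235 and 202 at 24 h, and 229, 228 and 236 at 48 h. The arms overlapped at 0 h and stood fully apart at each later time, with means of 134 ± 5.71 against 53.1 ± 0.496 TPM (SD, n = 3) at 8 h and 231 ± 4.54 against 56.6 ± 1.34 TPM at 48 h. The order of the TGFβ1 means was 0, 8, 24 and 48 h, but the libraries of 24 h (mean 212 ± 20 TPM) and 48 h overlapped.

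On the log2 scale the difference of MARCKS at 8, 24 and 48 h was 1.39 ± 0.066, 1.68 ± 0.065 and 2.05 ± 0.065 (SE), with adjusted p = 7.8e-13, 9.7e-15 and 3.2e-16 in limma voom. At 48 h this is a 4.14-fold higher level. The difference grew by 1.22 from 0 to 8 h (adjusted p = 6.2e-09) and by 0.37 from 24 to 48 h (adjusted p = 0.0082), while its change of 0.29 from 8 to 24 h did not pass (adjusted p = 0.042, all limma voom). The call from 24 to 48 h was lost when any 1 of 16 of the 24 libraries was left out (adjusted p up to 0.027). In untreated cells MARCKS was lower than at 0 h at 8 h (log2 change -0.36) and at 48 h (-0.31), both past the threshold. At 24 h its untreated change was -0.01 and did not pass (adjusted p = 0.91, limma voom). The untreated changes to 24 and 48 h run across codes, so time and code cannot be told apart in them. In the exact permutation test over the libraries of 8, 24 and 48 h, MARCKS gave p = 0.00025, the smallest value that 8000 relabellings allow.

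MARCKSL1 (chr1:32333839-32336233, minus strand, 1 transcript of 2 exons) stood near MARCKS in level at 0 h and climbed with time in both arms. Its untreated libraries held 58.5, 57.3 and 59.4 TPM at 0 h, 68.1, 70.1 and 68.4 at 8 h, 83.4, 86.1 and 86.4 at 24 h, and 114, 111 and 111 at 48 h. With TGFβ1 they held 55.8, 54.9 and 56.4 TPM at 0 h, 64.2, 67.5 and 67.9 at 8 h, 88.1, 82.5 and 86.1 at 24 h, and 144, 143 and 139 at 48 h. The 4 time points were in the same order in both arms and did not overlap within an arm, and TGFβ1 libraries lay below the untreated ones at 0 and 8 h, among them at 24 h and above them at 48 h. The log2 difference was 0.01 ± 0.042, 0.04 ± 0.041 and 0.36 ± 0.040 at 8, 24 and 48 h (SE), and the last alone passed (adjusted p = 2.1e-07, limma voom). The small values at 8 and 24 h turned to -0.08 and -0.06 with library totals as the scale, and with 4 reference genes the value at 24 h was 0.39 and called (adjusted p = 5.3e-08). The gap at 48 h opened after 24 h, by 0.32 ± 0.057 (adjusted p = 0.00048), which is a comparison within codes. Untreated cells rose by 0.19, 0.51 and 0.85 log2 units from 0 h to 8, 24 and 48 h, each past the threshold. The exact permutation test over the 3 times gave p = 0.0835 for MARCKSL1.

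The balance of the 2 paralogs was taken as the ratio of their TPM within a library. The ratio of MARCKS to MARCKSL1 was 1.13 ± 0.116 (SD, n = 3) in untreated cells at 0 h and 0.504 ± 0.0201 at 48 h. With TGFβ1 the ratio at 0, 8, 24 and 48 h was 1.31 ± 0.154, 2.01 ± 0.0487, 2.48 ± 0.318 and 1.63 ± 0.0652. All 3 TGFβ1 libraries lay above all 3 untreated libraries at 8, 24 and 48 h.

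**Figure D2:**
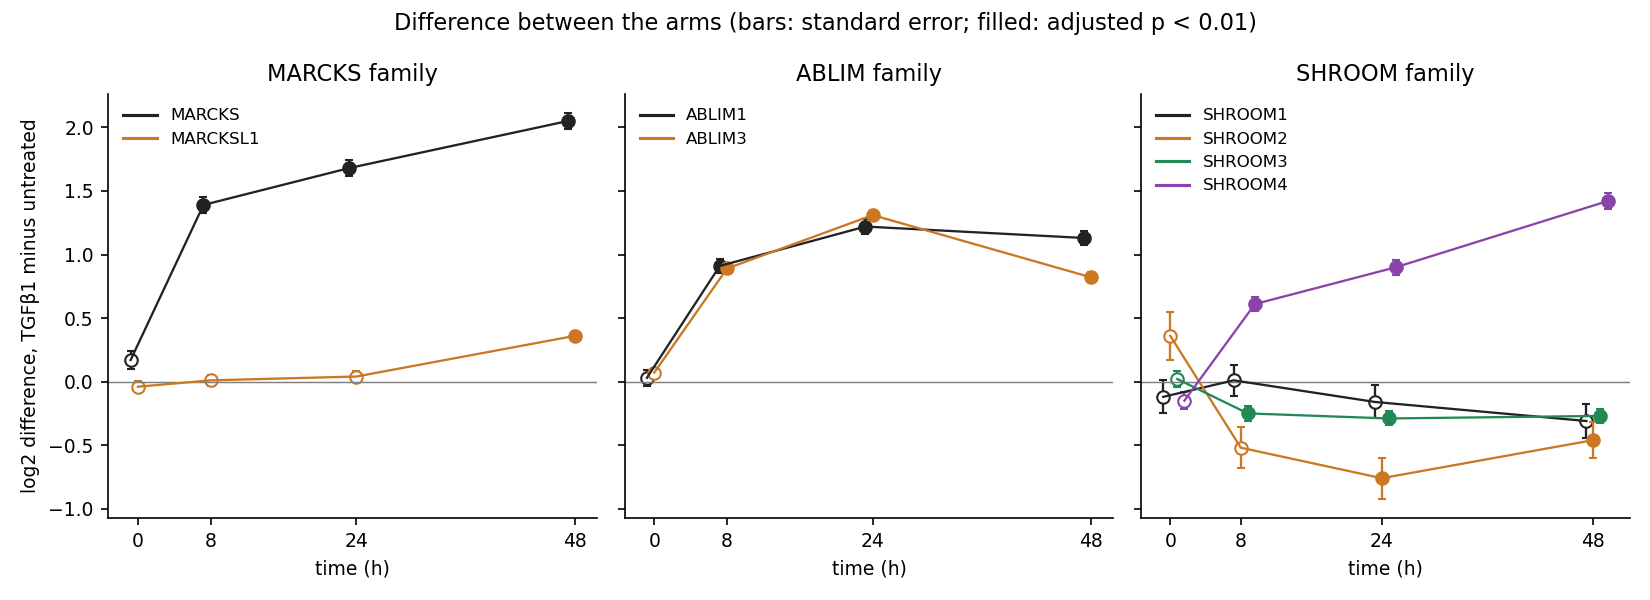
Log2 difference between the arms (TGFβ1 minus untreated, limma voom, vertical axis) against time in hours for the 3 families, with standard errors as bars and filled points where the adjusted p was below 0.01. MARCKS climbed to 2.05 at 48 h, ABLIM3 turned back from 1.31 at 24 h to 0.82 at 48 h, and SHROOM4 parted from SHROOM1, SHROOM2 and SHROOM3, which lay between -0.76 and 0.01 after 0 h, although SHROOM1 and SHROOM3 were above 0 at 24 and 48 h when 4 reference genes set the library size.

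ABLIM1 and ABLIM3 both rose with TGFβ1, along different courses. ABLIM1 (chr10:114431112-114768061, minus strand) held 12, 12.2 and 12.9 TPM in untreated libraries at 0 h, 15.6, 14.2 and 14.0 at 8 h, 16.1, 17.5 and 17.7 at 24 h, and 24.4, 23.2 and 23.1 at 48 h. With TGFβ1 it held 9.92, 13.3 and 13.5 TPM at 0 h, 26.7, 26.1 and 26.6 at 8 h, 37.7, 41.0 and 39.9 at 24 h, and 45.5, 48.6 and 46.4 at 48 h. Both arms climbed at each step, and from 8 h every TGFβ1 library lay above every untreated library of its time. The log2 difference was 0.91 ± 0.057, 1.22 ± 0.056 and 1.13 ± 0.055 at 8, 24 and 48 h (SE), with adjusted p = 7.2e-11, 1.7e-13 and 4.0e-13 in limma voom. The difference grew by 0.88 from 0 to 8 h (adjusted p = 1.1e-07). Its later steps of 0.31 (adjusted p = 0.013) and -0.09 (adjusted p = 0.51) did not pass, although the first of them passed when TGFb 0h replicate 1, TGFb 0h replicate 2 or TGFb 24h replicate 1 was left out.

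ABLIM3 (chr5:149141483-149260542, plus strand) stayed between 30.9 and 40.1 TPM without the ligand, and with it rose by 8 h and stood lower at 48 h than at 24 h. In untreated cells its log2 change from 0 h was 0.11 at 8 h, which did not pass, and -0.16 and -0.14 at 24 and 48 h, which did (adjusted p = 0.0021 and 0.0053, limma voom). Untreated libraries held 35.0, 35.5 and 35.8 TPM at 0 h, 40, 38.6 and 40.1 at 8 h, 35.2, 30.9 and 32.5 at 24 h, and 35.5, 34.2 and 35.1 at 48 h. TGFβ1 libraries held 35.7, 35.7 and 36.4 TPM at 0 h, 71.4, 71.0 and 71.4 at 8 h, 74.6, 81.6 and 78.1 at 24 h, and 60.3, 60.1 and 58.7 at 48 h. The highest untreated library, 40.1 TPM, stayed below the lowest TGFβ1 library after 0 h, 58.7 TPM. The log2 difference was 0.89 ± 0.039, 1.31 ± 0.040 and 0.82 ± 0.040 at 8, 24 and 48 h (SE), with adjusted p = 1.9e-13, 1.9e-16 and 4.1e-13 in limma voom. ABLIM3 was the only member whose difference changed past the threshold at every step, by 0.82 from 0 to 8 h, by 0.41 from 8 to 24 h and by -0.49 from 24 to 48 h (adjusted p = 9.6e-10, 2.6e-05 and 3.4e-06). For both ABLIM genes the exact permutation p was 0.00025.

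The ratio of ABLIM3 to ABLIM1 TPM was lower at 48 h than at 0 h in every library of both arms. It was 2.86 ± 0.0818 (SD, n = 3) at 0 h and 1.48 ± 0.0319 at 48 h in untreated cells, and 3.00 ± 0.520 at 0 h and 1.28 ± 0.0459 at 48 h with TGFβ1. Antisense lncRNA genes overlap ABLIM1 (1 gene), ABLIM3 (2 genes) and SHROOM3 (2 genes), and whether the libraries kept strand is not stated, so reads of the 2 strands there may not be told apart.

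ABLIM1 was described by transcript as well, because its promoters lie far apart. Of its 11 deposited transcripts, 2 reached the 10% limit, and together they held most of the gene's TPM. ABLIM1-204 starts at chromosome 10 position 114684457 and has 23 exons and 2154 coding bases. ABLIM1-203 starts at position 114526931, 157526 bases further along the gene, has 18 exons and 1365 coding bases, and lacks 6 upstream exons of ABLIM1-204. The transcripts share 1281 coding bases, so the shorter form lacks much of the amino-terminal part, the end at which ABLIM proteins carry their LIM domains.

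The long ABLIM1-204 gained more TPM than ABLIM1-203. It held 7.87, 7.70 and 7.41 TPM in untreated libraries at 8 h against 15.1, 13.8 and 15.2 TPM with TGFβ1, 8.92, 8.64 and 7.70 against 20.9, 23.9 and 22.4 TPM at 24 h, and 11, 10.7 and 10.2 against 25.7, 28.0 and 26.3 TPM at 48 h. ABLIM1-203 held 4.70, 4.23 and 4.60 against 6.28, 8.20 and 7.21 TPM at 8 h, 5.56, 6.06 and 6.55 against 8.86, 12.7 and 9.65 TPM at 24 h, and 7.27, 7.53 and 7.71 against 13.3, 11.5 and 13.8 TPM at 48 h. Both transcripts were higher in all TGFβ1 libraries at these times. At 0 h the arms were at 6.14 ± 0.227 and 5.54 ± 0.512 TPM for ABLIM1-204 and at 3.81 ± 0.868 and 4.57 ± 1.12 TPM for ABLIM1-203 (SD, n = 3).

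Both passed the threshold at 8, 24 and 48 h in limma voom over 86952 transcripts, beside 2.55%, 5.49% and 6.69% of all transcripts tested. The log2 difference of ABLIM1-204 was 1.00 ± 0.061, 1.45 ± 0.058 and 1.34 ± 0.055 (SE), and that of ABLIM1-203 was 0.73 ± 0.16, 0.80 ± 0.15 and 0.79 ± 0.14. At 0 h the difference of ABLIM1-203 was already 0.31 ± 0.19, not called. Within codes it changed by 0.43 from 0 to 8 h (adjusted p = 0.65, limma voom) and by -0.01 from 24 to 48 h, and neither passed. The difference of ABLIM1-204 changed by 1.11 from 0 to 8 h (adjusted p = 7.6e-07, limma voom), which passed. Its change of -0.11 from 24 to 48 h did not (adjusted p = 0.72, limma voom). The call of ABLIM1-203 at 8 h was marginal (adjusted p = 0.0096), and it was lost in edgeR (adjusted p = 0.014), in limma-trend, without the count filter and when any 1 of 17 libraries was left out. At 24 h the call of ABLIM1-203 was lost without Control 24h replicate 1 (log2 difference 0.73, adjusted p = 0.012). The split between the transcripts is kallisto's estimate from reads that both share in most of their length.

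The share of the gene's TPM held by ABLIM1-204 was 52.5 ± 1.87% untreated and 55.5 ± 2.20% with TGFβ1 at 8 h, 49.4 ± 5.99% and 56.6 ± 1.44% at 24 h, and 45.1 ± 0.811% and 57.0 ± 0.606% at 48 h (SD, n = 3). At 0 h the shares leaned the other way, at 49.7 ± 3.33% untreated and 45.7 ± 3.75% in the TGFβ1 arm for ABLIM1-204 and at 30.7 ± 6.64% and 37.3 ± 5.96% for ABLIM1-203, with overlapping libraries. Over the 3 later times the share of ABLIM1-204 was 7.37 percentage points higher with TGFβ1 (exact permutation p = 0.001, two-sided, 8000 relabellings), and the share of ABLIM1-203 was 5.67 points lower (exact permutation p = 0.00175). At 48 h the libraries did not overlap for ABLIM1-204, at 44.3 to 45.9% against 56.5 to 57.7%. With shares of estimated counts in place of TPM the difference was 7.73 points (exact permutation p = 0.0005).

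**Figure D3:**
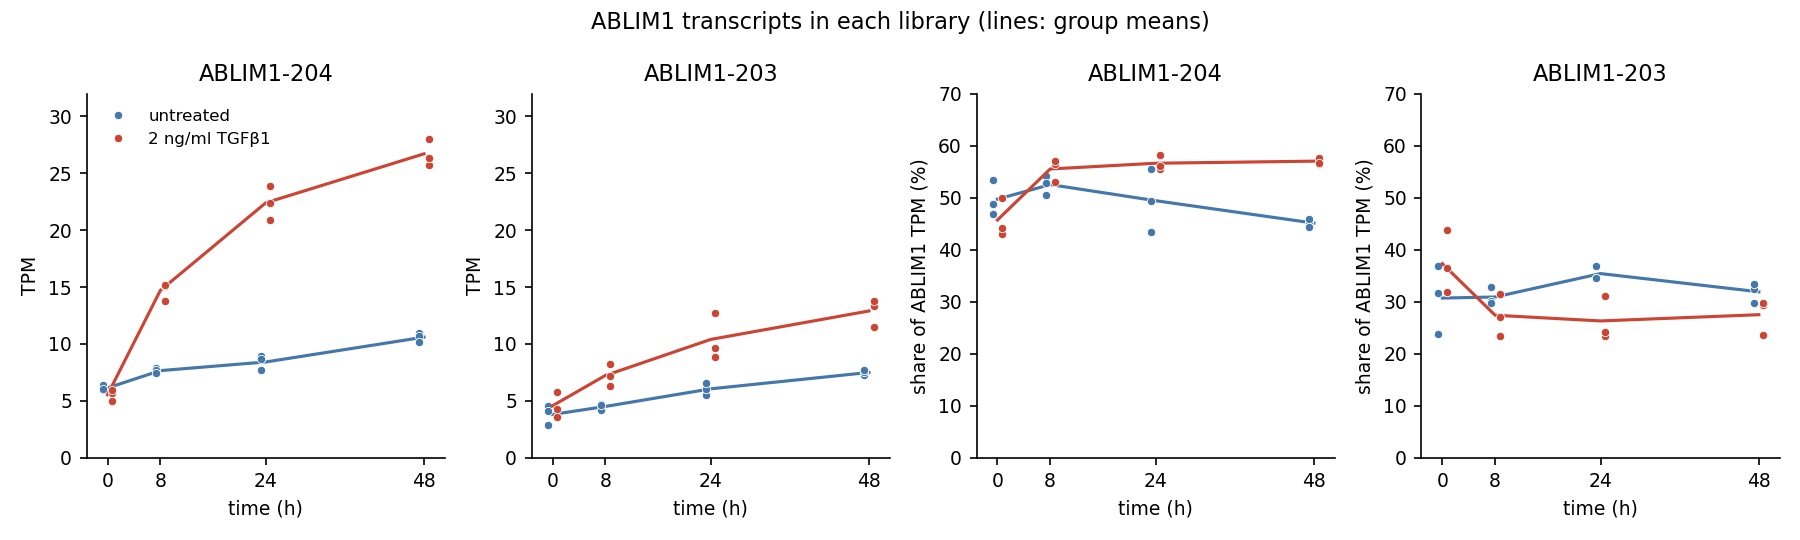
TPM (left pair, from 0 to 32) and share of the ABLIM1 TPM in percent (right pair, from 0 to 70) of ABLIM1-204 and ABLIM1-203 against time in hours, with 1 point per library and lines through group means, untreated in blue and TGFβ1 in red. ABLIM1-204 reached 25.7 to 28.0 TPM at 48 h with TGFβ1 and its share stood at 57.0%, against 45.1% untreated.

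The SHROOM genes split by member. SHROOM4 (chrX:50586796-50814302, minus strand) rose, at a low level. Its untreated libraries held 1.53, 1.53 and 1.61 TPM at 0 h, 2.21, 1.96 and 1.86 at 8 h, 1.81, 1.82 and 1.91 at 24 h, and 1.39, 1.31 and 1.32 at 48 h. With TGFβ1 they held 1.25, 1.47 and 1.37 TPM at 0 h, 2.99, 2.69 and 3.05 at 8 h, 3.39, 3.27 and 3.17 at 24 h, and 3.43, 3.55 and 3.49 at 48 h. The TGFβ1 arm began slightly below the untreated arm and was above it, with no overlap, from 8 h on.

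The log2 difference of SHROOM4 was 0.61 ± 0.057, 0.90 ± 0.058 and 1.42 ± 0.063 at 8, 24 and 48 h (SE), with adjusted p = 3.3e-08, 5.2e-11 and 6.7e-14 in limma voom. It grew by 0.76 from 0 to 8 h and by 0.52 from 24 to 48 h (adjusted p = 1.9e-06 and 0.0002), whereas the step of 0.29 from 8 to 24 h did not pass (adjusted p = 0.022). The last step came with a lower untreated level, which at 48 h was below that of 0 h (log2 change -0.36, adjusted p = 0.00011), while the TGFβ1 means of 24 and 48 h were 3.28 ± 0.110 and 3.49 ± 0.0590 TPM (SD, n = 3). The values rest on 322 to 1310 estimated reads per library, and the exact permutation p was 0.00025.

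SHROOM4-203, a transcript that starts inside the gene at chromosome X position 50643683 and has 348 coding bases fewer than SHROOM4-202, was looked at after its values were seen. It held 1.18, 0.558 and 0.880 TPM in the TGFβ1 libraries of 48 h, where 1 of the 3 untreated libraries was at 0.308 TPM and the others were at or close to 0. At 24 h it was at 0.888 TPM in TGFb 24h replicate 1 and at most 0.0479 TPM in the other TGFβ1 replicates. The difference at 48 h did not pass (adjusted p = 0.085, limma voom over transcripts).

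SHROOM3 (chr4:76435229-76783253, plus strand), the member best known for apical constriction, rose in both arms and was lower with TGFβ1. Untreated libraries held 4.04, 4.77 and 4.35 TPM at 0 h, 8.82, 7.83 and 7.92 at 8 h, 11.1, 10.6 and 11.5 at 24 h, and 11.4, 10.4 and 9.67 at 48 h. TGFβ1 libraries held 4.46, 3.90 and 4.75 TPM at 0 h, 6.19, 6.67 and 6.63 at 8 h, 10.2, 8.35 and 8.77 at 24 h, and 8.69, 9.74 and 8.07 at 48 h. The arms stood apart at 8 and 24 h and overlapped at 48 h by 1 library of each.

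The log2 difference of SHROOM3 was -0.25 ± 0.056, -0.29 ± 0.055 and -0.27 ± 0.056 at 8, 24 and 48 h (SE), with adjusted p = 0.0022, 0.00022 and 0.00038 in limma voom, but with 4 reference genes as library size it was 0.06 at 24 h and 0.08 at 48 h and not called. That scaling, by the housekeeping genes of the study's qRT-PCR, moved the median log2 difference of all genes to 0.335 at 24 h and 0.336 at 48 h. Which scaling is nearer to the true levels was not tested. Scaling by library totals moved the median to between -0.11 and -0.096 at the 3 times. Within codes, the change of the difference was -0.27 from 0 to 8 h (adjusted p = 0.042) and 0.01 from 24 to 48 h (adjusted p = 0.94), and neither passed. The calls of SHROOM3 at 8, 24 and 48 h were also lost in limma-trend on log2(TPM + 1), with adjusted p of 0.019, 0.023 and 0.047. With length-scaled counts in limma voom all 3 were lost (adjusted p = 0.037, 0.031 and 0.059). A limma voom fit on the libraries of 24 h alone lost the call of that time (adjusted p = 0.023). The call at 8 h was lost without Control 8h replicate 2 or TGFb 8h replicate 1. The exact permutation p was 0.0005.

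SHROOM2 (chrX:9786429-9949443, plus strand) was the least abundant member, with 43 to 158 estimated reads per library. In untreated cells it held 0.245, 0.294 and 0.216 TPM at 0 h, 0.355, 0.395 and 0.386 at 8 h, 0.474, 0.374 and 0.502 at 24 h, and 0.763, 0.604 and 0.622 at 48 h. With TGFβ1 it held 0.222, 0.315 and 0.261 TPM at 0 h, 0.256, 0.251 and 0.326 at 8 h, 0.364, 0.241 and 0.276 at 24 h, and 0.678, 0.381 and 0.399 at 48 h. All TGFβ1 libraries lay below all untreated ones at 8 and 24 h, and TGFb 48h replicate 1 lay among the untreated libraries of 48 h. The log2 difference was -0.52 ± 0.16, -0.76 ± 0.16 and -0.46 ± 0.14 (SE) at 8, 24 and 48 h, with adjusted p = 0.018, 0.0006 and 0.0099 in limma voom, so that it passed at 24 and 48 h. Within codes, the difference changed by -0.89 from 0 to 8 h (adjusted p = 0.019) and by 0.30 from 24 to 48 h (adjusted p = 0.40), and neither passed. The call at 48 h was lost in edgeR and DESeq2 (adjusted p = 0.022 and 0.027). Leaving out any 1 of 20 of the 24 libraries also lost it (adjusted p up to 0.078). So did the 4 reference genes as library size (log2 difference -0.11, adjusted p = 0.5, limma voom) and several other settings. The call at 24 h was lost in limma-trend, whether 1 or 0.1 was added to the TPM (adjusted p = 0.058 and 0.048). In limma voom the reference genes (adjusted p = 0.028) and length-scaled counts (adjusted p = 0.036) lost it too. A limma voom fit on the libraries of 24 h alone did not call it either (adjusted p = 0.012). The exact permutation p was 0.002.

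SHROOM1 (chr5:132822141-132830659, minus strand) did not pass the threshold at any time in the fit over all libraries. Its 12 untreated libraries held 6.86 to 9.07 TPM and its 12 TGFβ1 libraries 4.45 to 10.5 TPM, with the lowest and the highest value both in the TGFβ1 arm. The log2 difference was 0.01 ± 0.12, -0.16 ± 0.13 and -0.31 ± 0.13 at 8, 24 and 48 h (SE), with adjusted p = 0.97, 0.34 and 0.059 in limma voom. Within codes, the difference changed by 0.13 from 0 to 8 h and by -0.15 from 24 to 48 h (adjusted p = 0.74 and 0.66). At 48 h the arms did not overlap, at 8.36 to 8.53 TPM untreated and 5.68 to 7.14 TPM with TGFβ1, and a fit on the libraries of 48 h alone called the difference (adjusted p = 0.0022). With the 4 reference genes the values were 0.19 at 24 h and 0.04 at 48 h, and neither was called. The exact permutation p over the 3 times was 0.131.

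The ratio of SHROOM4 to SHROOM3 TPM set a member that was higher with TGFβ1 against one that was lower in the fit over all libraries. In untreated cells it stood at 0.356 ± 0.0317, 0.245 ± 0.00915, 0.167 ± 0.00493 and 0.128 ± 0.00764 at 0, 8, 24 and 48 h (SD, n = 3). With TGFβ1 it was 0.315 ± 0.0530, 0.448 ± 0.0413, 0.362 ± 0.0294 and 0.397 ± 0.0340, so it did not rise at each step.

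Change from 0 h within an arm showed which genes moved without the ligand. In untreated cells 6 of 8 members changed by 8 h, 5 by 24 h and 7 by 48 h, beside 25.9%, 47.6% and 55.2% of all genes tested. In the TGFβ1 arm 6, 6 and 7 of 8 changed, beside 33.9%, 47.1% and 58%. SHROOM3 rose by 1.04, 1.49 and 1.37 log2 units in untreated cells at 8, 24 and 48 h, and by 0.77, 1.18 and 1.08 with TGFβ1. SHROOM2 rose by 0.81, 1.07 and 1.47 in untreated cells, and with TGFβ1 it changed past the threshold only at 48 h, by 0.65. ABLIM1 rose by 0.24, 0.48 and 0.78 without and by 1.12, 1.67 and 1.87 with TGFβ1. These changes from 0 to 24 h and from 0 to 48 h run across codes, so time and code cannot be told apart in them. Time spent in medium without growth factors may run with time as well, and its part was not tested.

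**Figure D4:**
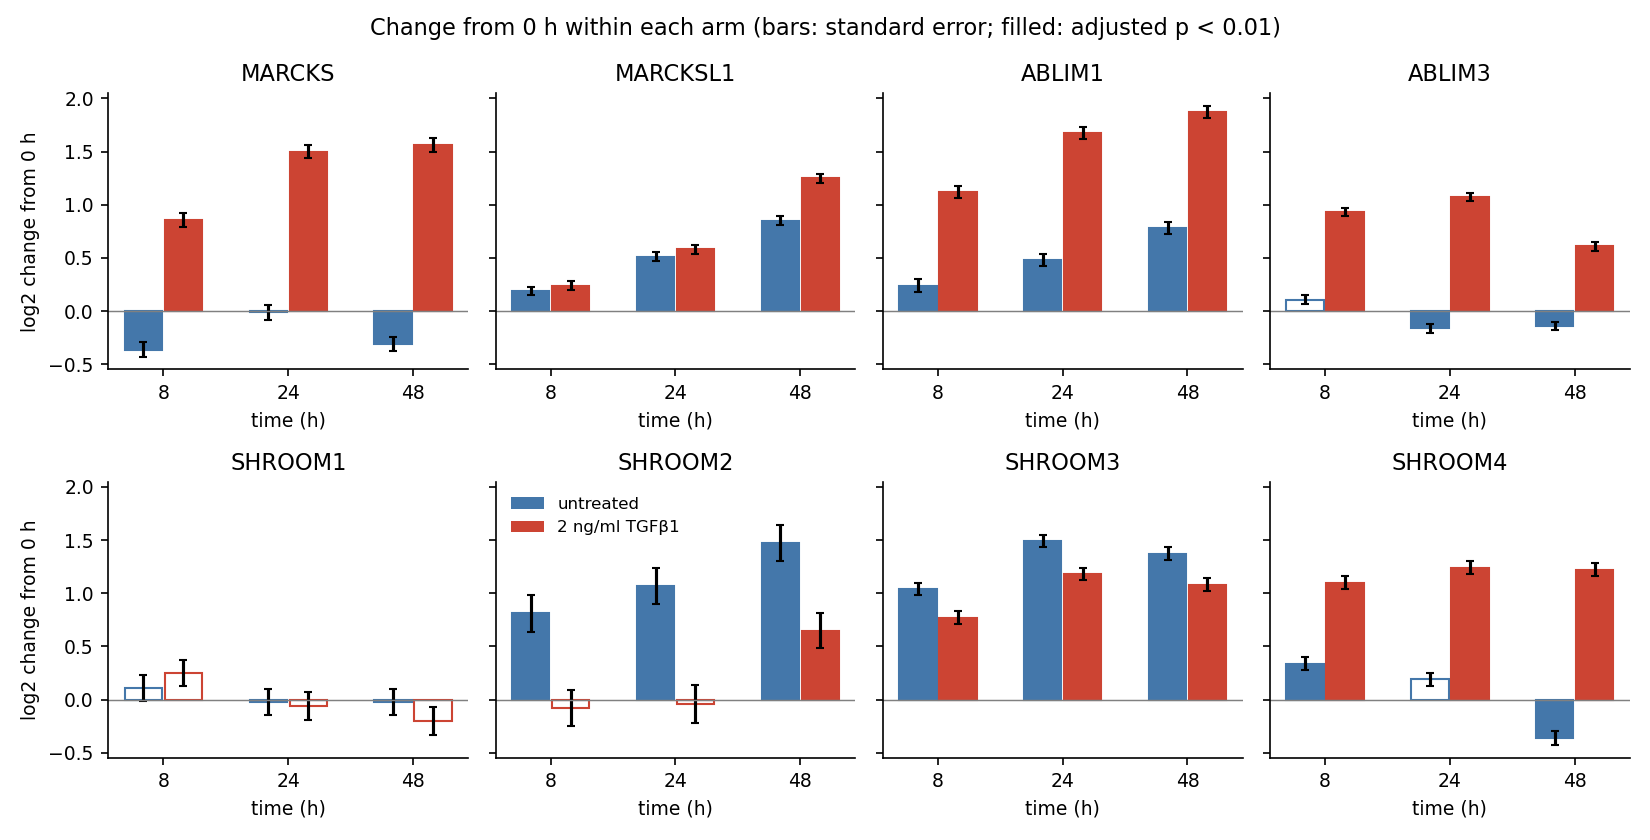
Log2 change from 0 h within each arm (limma voom, vertical axes) at 8, 24 and 48 h for the 8 genes, untreated in blue and TGFβ1 in red, with standard errors as bars and filled columns where the adjusted p was below 0.01. MARCKS, ABLIM3 and SHROOM4 rose with TGFβ1 while their untreated levels stayed within 0.36 log2 units of 0 h, MARCKSL1, ABLIM1 and SHROOM3 rose in both arms, and SHROOM1 passed in neither. Columns within 0.02 of 0, too thin to show a fill, did not pass.

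Steps of the difference itself passed for 4 of 8 members from 0 to 8 h (MARCKS, ABLIM1, ABLIM3 and SHROOM4), beside 7.91% of all genes, for 1 of 8 from 8 to 24 h (ABLIM3), beside 6.71%, and for 4 of 8 from 24 to 48 h (MARCKS, MARCKSL1, ABLIM3 and SHROOM4), beside 9.14%. In TPM, 2 of 8 members had arms that did not overlap at 0 h, beside 6.98% of all genes, then 7 of 8 at 8 h, beside 47.5%, and 6 of 8 at 24 h and at 48 h, beside 40.4% and 55.2%.

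Across the 24 libraries MARCKS, ABLIM1, ABLIM3 and SHROOM4 varied together, with Pearson correlations of log2 CPM (reads scaled to library size) of 0.77 to 0.90 among them. SHROOM2 and SHROOM3 had 0.72, and MARCKSL1 had 0.70 with SHROOM3 and 0.74 with ABLIM1. These libraries share time points and arms, so the values describe the common course and carry no test. Among the closest of 10050 genes searched were ELK3 and LPCAT2 for MARCKS (0.985 to 0.988), PGM2L1, KIRREL1 and TK2 for ABLIM1 (0.988 to 0.994), SEC14L2, AFAP1L2 and ANKLE2 for ABLIM3 (0.973 to 0.981), and TNFAIP8L3, MYORG and BCAS4 for SHROOM4 (0.965 to 0.970). For MARCKSL1 they were GLB1, GPR153 and SPINT1 (0.985 to 0.987), for SHROOM3 PGPEP1, PDP2 and SMARCC2 (0.973 to 0.981), and for SHROOM1, where the likeness was weakest, TRIM11 and OXLD1 (0.889 to 0.908).

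Ranked by the average log2 difference over 8, 24 and 48 h, MARCKS stood at the 98.6 percentile of the 17415 genes, ABLIM1 at 97.0, ABLIM3 at 96.7 and SHROOM4 at 96.5, with MARCKSL1 at 74.7, SHROOM1 at 29.5, SHROOM3 at 19.6 and SHROOM2 at 8.2.

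Of a list of 30 genes related to these families, 28 were tested and 20 passed the F-test in limma voom, 11 higher and 9 lower on average with TGFβ1, beside 42.6% of all genes. At the 3 single times 7, 11 and 12 of the 28 passed, beside 16.4%, 29.4% and 32.7%. Within codes, the difference changed past the threshold for 4 of 28 from 0 to 8 h and for 5 of 28 from 24 to 48 h, beside 7.91% and 9.14% of all genes. The median log2 difference of the partners was 0.05, 0.09 and 0.00 at 8, 24 and 48 h.

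Among the protein kinase C genes, whose products phosphorylate MARCKS, PRKCA (protein kinase C alpha) had the largest difference between the arms at 48 h. It held 29.2, 27.7 and 28.8 TPM in untreated libraries of 48 h and 138, 142 and 138 TPM with TGFβ1. Its log2 difference was 0.90 ± 0.049, 1.74 ± 0.051 and 2.32 ± 0.052 at 8, 24 and 48 h (SE), all called in limma voom, and its untreated means of 0 and 48 h were 76.8 ± 2.31 and 28.6 ± 0.778 TPM (SD, n = 3). From 0 to 48 h its log2 change was -1.52 in untreated cells and 0.81 with TGFβ1, both past the threshold. PRKCD, the delta form, was higher by 0.27, 0.51 and 0.56 log2 units, whereas PRKCE, the epsilon form, was lower by -0.25, -0.52 and -0.87, all past the threshold. Within codes, the steps of PRKCD from 0 to 8 h (0.24) and from 24 to 48 h (0.06) did not pass (adjusted p = 0.12 and 0.77, limma voom). For PRKCE the step of -0.27 from 0 to 8 h did not pass (adjusted p = 0.026, limma voom). Its step of -0.34 from 24 to 48 h did (adjusted p = 0.0051, limma voom). Over the 3 times 4 of 8 tested protein kinase C genes were called higher on average, 3 lower and 1 not called. PRKCB was too low to test.

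The calmodulin gene CALM2 was not called, and CALM3 was lower at 24 h alone (log2 difference -0.31 ± 0.040 SE). Of the 3 genes for PIP2 synthesis, 1 was called higher on average and 2 lower. PIP5K1C passed the F-test with no single time past the threshold, and PIP5K1A, at 50.6 ± 0.575 TPM with TGFβ1 and 58.3 ± 0.960 TPM without at 48 h (SD, n = 3), was lower by -0.23 at that time. PIP5K1B was lower by -1.41 at 24 h and -3.15 at 48 h, at 0.0260 to 0.0795 TPM with TGFβ1 against 0.316 to 0.442 TPM untreated at 48 h. Within codes, its steps of -0.76 from 0 to 8 h and -1.74 from 24 to 48 h did not pass (adjusted p = 0.4 and 0.014, limma voom). NMT1, a myristoyltransferase, passed the F-test with no single time past the threshold.

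On the ABLIM side, MRTFA, the actin-regulated partner of SRF, held 16.6, 16.3 and 17.5 TPM in untreated libraries of 8 h and 34.0, 34.1 and 31.4 TPM with TGFβ1. Its log2 difference was 1.08 ± 0.10, 0.95 ± 0.11 and 0.81 ± 0.11 at 8, 24 and 48 h (SE), all called. SRF was higher at 8 h alone (0.44 ± 0.074), and ABRA was too low to test. SVIL (supervillin), another villin headpiece gene, was higher by 0.23, 0.38 and 0.19 log2 units, each called. Of the 5 villin headpiece genes 1 was called higher on average, 2 lower and 2 were not called.

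On the SHROOM side, ROCK1 and ROCK2, the kinases that SHROOM proteins recruit, were not called at any time, with log2 differences of 0.06 to 0.14. RHOA, which activates them, was higher at 8 h (0.15 ± 0.035 SE) and 48 h (0.26 ± 0.036 SE), while its steps within codes, 0.06 from 0 to 8 h and 0.14 from 24 to 48 h, did not pass (adjusted p = 0.58 and 0.064, limma voom).

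**Figure D5:**
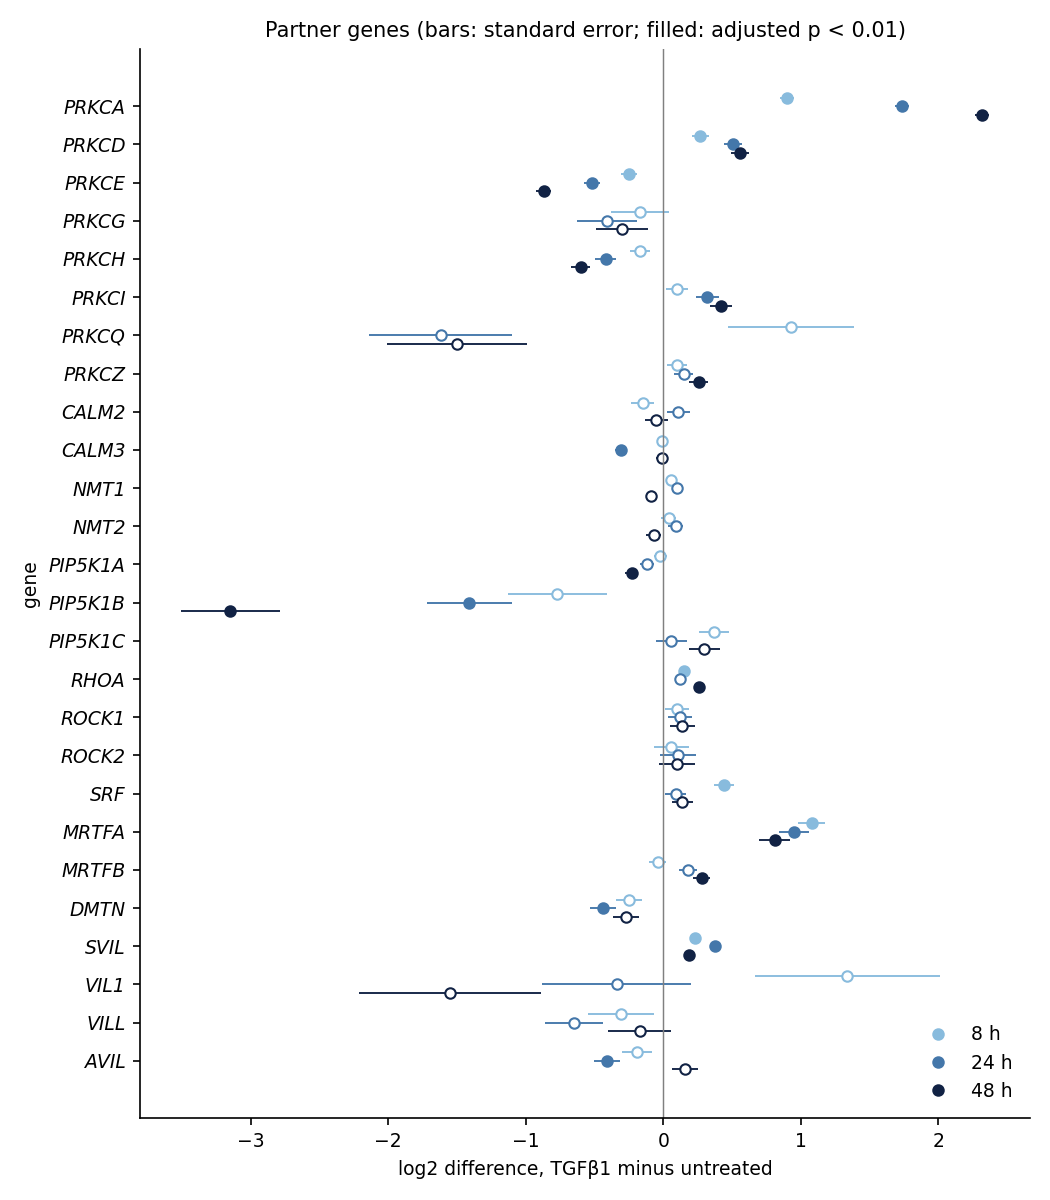
Log2 difference between the arms (TGFβ1 minus untreated, limma voom, horizontal axis) of 26 of the 28 tested partner genes at 8, 24 and 48 h in light, middle and dark blue, with standard errors as bars and filled points where the adjusted p was below 0.01. PRKCA lies farthest to the right at 2.32 and PIP5K1B farthest to the left at -3.15, while ROCK1 and ROCK2 have open points near 0 at each time.

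Of 6 squamous markers, TP63 (8.74 to 36.8 TPM over group means) and SOX2 (0.432 to 7.41 TPM) were present, while KRT5, KRT14, KRT6A and DSG3 were at 0.0622 TPM or less in every group, so the keratins and desmoglein that define squamous epithelium were near absent. Of the 4 epithelial markers, KRT8, KRT18 and EPCAM were at 22.2 TPM or more and CDH1 at 1.20 to 5.22 TPM. The 3 fibroblast markers summed to 29.7 to 34.0 TPM with TGFβ1 and 40.4 to 41.1 TPM without at 48 h, and to 23.1 to 26.3 and 15.2 to 17.8 TPM at 24 h. Its members went opposite ways at 48 h, with PDGFRB at 21.1 TPM with TGFβ1 and 5.28 TPM without, DCN at 1.47 and 12.2 TPM, and LUM at 9.19 and 23.3 TPM (group means), each called in limma voom. The 2 leukocyte markers summed to 9.09 to 9.80 TPM with TGFβ1 and 10.2 to 12.7 TPM without at 48 h. At 0 h they summed to 32.6 to 41.7 TPM in the TGFβ1 arm and 30.2 to 34.5 TPM untreated. Over group means CD68 was at 7.89 to 34.9 TPM and PTPRC at 1.37 to 2.01 TPM. The 2 endothelial markers summed to 3.03 to 4.30 and 2.63 to 2.89 TPM at 48 h. Over group means PECAM1 was at 0.806 to 3.42 TPM and CDH5 at most 0.102 TPM. The part of other cell types in the results was not tested.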

How the data were processed

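Total RNA of 24 libraries of SK-MES1 cells was sequenced on a HiSeq 4000. The authors quantified transcripts with kallisto 0.43.0 (submitters' processing notes) against Ensembl release 79 on GRCh38, and each deposited table holds estimated counts, TPM and effective lengths of 173259 transcripts. Names came from GENCODE release 44, which matched 155518 transcripts (89.8%) and 94.82 to 95.18% of the estimated counts per library, and the other 17741 were left out. Estimated counts were summed per gene, rounded to whole numbers and kept where 3 or more libraries had 10 or more. Differences were fitted with limma voom (limma 3.58.1, TMM factors from edgeR 4.0.16, R 4.3.3) over 8 group means, with Benjamini-Hochberg adjustment over all genes and a threshold of 0.01. DESeq2 1.42.0, edgeR and limma-trend were alternatives. The script was tested on simulated data. Exact permutation tests exchanged arms within 8, 24 and 48 h on log2(TPM + 0.1). All 24 pairs of replicates within a group differed beyond sampling noise (chi-square per degree of freedom 3.17 to 60.5). Named were the 8 members, ABLIM1 transcripts reaching 10% of its TPM, the partner and marker lists, and for each member the 3 genes most correlated in log2 CPM, among genes of at least 10 TPM in some group (SHROOM2, below 1 TPM, was not searched). Members and lists were chosen with earlier results of these data known. Some items of these lists are not reported here.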

Additional observations from a re-analysis of the deposited data

Results flagged for a closer look

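The difference between the arms itself changed between time points, by limma voom's test of that change, in 9 cases. From 0 to 8 h it grew by 1.22 on the log2 scale for MARCKS, 0.88 for ABLIM1, 0.82 for ABLIM3 and 0.76 for SHROOM4. From 8 to 24 h it grew by 0.41 for ABLIM3, a step that also crosses from one code in the names of the deposited tables to another, so that time and code cannot be told apart. From 24 to 48 h it grew by 0.37 for MARCKS, 0.32 for MARCKSL1 and 0.52 for SHROOM4, and its change was -0.49 for ABLIM3, the only one of the 9 in the downward direction. The MARCKS call of this step was lost when any 1 of 16 of the 24 libraries was left out and in several other settings. That of SHROOM4 was lost in limma-trend on log2(TPM + 0.1).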

How the results depend on the processing

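At each time the code in the table names goes with the arm, and the 2 cannot be told apart. With 4 reference genes as library size the log2 difference of SHROOM3 turned to 0.06 at 24 h and 0.08 at 48 h, and SHROOM2 rests on 43 to 158 estimated reads per library. Counts of members and transcripts at the threshold moved by over 1.5 times in the following cases, and the cause was not tested. For the change of the difference from 8 to 24 h the count of 1 became 3 in DESeq2, 2 with DESeq2 size factors, 5 with the reference genes and 2 with the replicate block, and for 24 to 48 h 4 became 2 in limma-trend on log2(TPM + 0.1). For untreated cells against 0 h, 6 became 3 at 8 h with the reference genes, 5 became 3 at 24 h in limma-trend on log2(TPM + 1), and 7 became 4 at 48 h in both limma-trend fits and with the reference genes. The 20 partner genes became 12 in both limma-trend fits, 13 with length-scaled counts and 10 as changes from 0 h, and the 2 ABLIM1 transcripts at 8 h became 1 in edgeR, limma-trend and without the count filter.

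With each library left out in turn, member counts were 7 to 7 in the F-test, 0 to 0 at 0 h, 4 to 6 at 8 h, 6 to 6 at 24 h and 6 to 7 at 48 h. Counts for the change of the difference were 4 to 5 from 0 to 8 h, 1 to 3 from 8 to 24 h and 3 to 4 from 24 to 48 h. Against 0 h, counts were 5 to 6, 4 to 6 and 6 to 7 in untreated cells and 6 to 6, 6 to 6 and 6 to 7 with TGFβ1. Partner counts were 15 to 20, ABLIM1 transcripts 1 to 2 at 8 and 24 h and 2 to 2 at 48 h, members with an exact permutation p below 0.05 were 6 to 7, and the share difference was -6.47 to -5 points for ABLIM1-203 and 6.38 to 8.38 for ABLIM1-204.

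Same-numbered replicates of the 2 arms were not shown to be paired: 4 of 12 pairs had a correlation over 0.1 (range -0.061 to 0.255). Those 4 were all at 0 and 24 h, and pairs with different numbers ran from -0.192 to 0.086. Whether same-numbered replicates share a source is not stated and was not tested. With the replicate block, 7 members passed in the F-test, 5 at 8 h, 6 at 24 h and 6 at 48 h, where SHROOM2 was lost (log2 difference -0.45, adjusted p = 0.012), and the step of ABLIM1 from 8 to 24 h was gained (0.31, adjusted p = 0.0054, limma voom). Alternatives for changes from 0 h within an arm and for the permutation tests, and some for partners and changes of the difference, were chosen after seeing the data.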
